A study of Homo sapiens with 6 samples.

Results

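MDM2, BCL2, MCL1, XIAP and PTMA are 5 protein-coding genes that act on cell survival or on the tumour suppressor p53, and their transcripts are known as targets of the RNA-binding protein HuR. They were taken by name out of 20175 protein-coding genes of the GENCODE annotation of the hg19 genome build. Every PAR-CLIP site on the strand of such a gene and wholly inside its span was counted, which gave 4152 of the 10639684 sites of the 6 libraries. Within a library these were between 70 of 259337 sites (G35) and 1501 of 4024972 sites (HuR replicate 2). On GRCh37, the same build as hg19, MDM2 spans chr12:69201957-69239324 on the plus strand, BCL2 chr18:60790579-60987361 and MCL1 chr1:150533371-150552214 on the minus strand, and XIAP chrX:122993562-123047822 and PTMA chr2:232571605-232578261 on the plus strand. Each site was assigned by its midpoint to coding sequence, 3'utr, 5'utr, intron or noncoding exon.

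All 6 libraries came from HEK293, an established human embryonic kidney line. PAR-CLIP feeds cells 4-thiouridine (4SU), crosslinks the labelled RNA to protein with UV light of 365 nm, trims it with RNase T1, and marks a crosslinked base by a T that is sequenced as C. The HuR group held 2 replicates from an immunoprecipitation (IP) of FLAG-tagged HuR. The GFP group held 3 libraries that measure background, from the same IP of green fluorescent protein with a FLAG tag, a protein with no known RNA binding. G20, G35 and G45 were cut from the gel near 20, 35 and 45 kDa, so each was a single library of another gel size and not a replicate culture. Total was a single library of lysate that went through 4SU labelling, crosslinking, RNase T1 digestion and depletion of ribosomal RNA, without IP. The labels do not say whether the HuR replicates came from separate cultures, so the p-values below measure the spread between these libraries, which may be technical, and the spread of Total was assumed to be like that of the other groups. The labelled cell line was not checked against marker genes.

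HuR, encoded by ELAVL1, is a ubiquitous member of the ELAV family that binds U-rich and AU-rich stretches, mostly in the 3'utr and in introns, and is best known for protecting mRNAs from decay. MDM2 is the ubiquitin ligase that turns p53 over, and it is itself a p53 target. BCL2 and MCL1 keep the outer membrane of the mitochondria closed to death signals, XIAP binds and blocks caspases downstream of it, and PTMA encodes prothymosin alpha, a small acidic nuclear protein that also hinders assembly of the apoptosome.

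The stretches below come from sites with many HuR reads. Each stretch is the central part, of at most 30 bases, of the cluster with the most reads in a site that ranked among the 3 highest of its gene in HuR. Of 15 such stretches, 4 hold a match to the motifs named next and 11 do not. All 4 with a match are shown, beside some of those without, and which ones to show was chosen after they were seen. Letters run 5' to 3' on the RNA strand with T for U, and capitals mark matches to TTTTT or ATTTA or TTTATTT, U-rich and AU-rich motifs of the kind HuR is known for. All site sequences of the 5 genes, 4152 of 4152, matched GRCh37 at the stated positions.
MDM2 3'utr, chr12:69236584-69236613, plus strand: gattttaatatttcttattttggtttatta
MDM2 intron, chr12:69204614-69204643, plus strand: ttggtgaggctgggcacctttccTTTTTgt
BCL2 intron, chr18:60889792-60889814, minus strand: tctacTTTATTTTTTcaaatctg
MCL1 3'utr, chr1:150548342-150548370, minus strand: ttctatcagacttaacctTTTATTTcctg
MCL1 3'utr, chr1:150547364-150547393, minus strand: agtggtgggtttatagggggaggaggaggc
XIAP 3'utr, chrX:123044128-123044157, plus strand: ggtgtagtgagtgtatataatgtgatttgg
XIAP intron, chrX:122998910-122998939, plus strand: tccattgttcttttgaggctgggagattat
PTMA 3'utr, chr2:232578117-232578146, plus strand: ataaaaggtttcTTTTTTTTTccTTTTTTg

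The next stretches come from the sites with the highest GFP level in 3 of the genes, and do not stand for all background sites. In windows around the 3'utr sites of the 5 genes, TTTTT was more frequent in G35 (31.25%) and G45 (28%) than in the HuR replicates (22.3% and 21.2%), and less frequent in G20 (16.4%). None of these stretches holds a match to the motifs, and the BCL2 stretch is also from the highest BCL2 site in HuR.
MDM2 intron, chr12:69229406-69229427, plus strand: caaccggctccgggatggctgg
BCL2 intron, chr18:60822916-60822932, minus strand: tcctggtcgctgcattg
XIAP 5'utr, chrX:122993954-122993970, plus strand: gggatgggccggccggt

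Reads per library ranged from 6187300 in G35 to 38644636 in G20. Levels are given as CPM, the read count scaled to library size with TMM factors (0.197 in G20 to 2.37 in Total), and per kb of region where genes are set side by side. Reads that overlap other annotated genes on the strand cannot be told apart from those of the 5 genes, and these were 1 processed pseudogene in the MDM2 3'utr and small or long noncoding RNAs elsewhere. Since only uniquely mapping reads were kept, repeated sequence lowers a level: of the 25-base stretches, 36.5% of the XIAP 3'utr, 38.7% of its introns and 31.7% of the MDM2 3'utr also occur elsewhere in the genome, against 4.32% of the MCL1 and 0.143% of the BCL2 3'utr. The level that 3 reads can show was 0.0709 CPM in HuR replicate 2 and up to 1.29 CPM in G35, and intervals and floors cover counting error only. Differences between groups were tested with edgeR's quasi-likelihood test over 40883 gene regions (coding sequence, 3'utr, 5'utr or introns of a gene), with Benjamini-Hochberg adjustment and a call at an adjusted p below 0.05. Against GFP, 5.76% of all tested regions were called (1.95% higher and 3.81% lower in HuR), and 4 of 19 regions of the 5 genes were (1 higher, 3 lower), with the MCL1 5'utr below the filter on low counts. Against Total, 2.60% of all regions were called (0.345% higher and 2.25% lower) and 0 of 19 regions of the 5 genes, of which 2 had an unadjusted p under 0.05 and DESeq2 called 2. Both comparisons use the same HuR libraries. Where GFP and HuR were compared on library totals instead of TMM, the median log2 fold change over all regions moved from -0.38 to 1.59, so that a fold change here is relative to the bulk of the regions.

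In HuR, MDM2 reads lay in introns and in the 3'utr, and the 3'utr level was higher than in each GFP slice without passing the test. The MDM2 3'utr held 11, 5.60 and 13.9 CPM in G20, G35 and G45, 27.2 and 35.8 CPM in HuR replicates 1 and 2, and 35.3 CPM in Total (45, 13, 33, 163, 1513 and 758 reads). The HuR and GFP libraries did not overlap, and Total lay within the range of HuR. Over all genes, 60.9% of tested 3'utr regions had a positive fold change against GFP. How often HuR lay above every slice over all genes was not counted, here or for the genes below. The log2 fold change was 1.63 ± 0.73 (SE) against GFP (adjusted p = 0.158, edgeR) and -0.16 against Total (adjusted p = 0.943, edgeR).

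The strongest MDM2 3'utr site in HuR, at chr12:69236581-69236631, lay 2955 to 3005 nt after the end of the coding sequence and is the U-rich stretch shown first above. It held 0, 0 and 7 reads in the GFP slices, 12 and 209 reads in the HuR replicates, and 5 reads in Total. Another, at chr12:69234925-69234985 (1299 to 1359 nt), held 29 and 104 reads in the HuR replicates, 187 in Total and 0 in each GFP slice. On library totals the first site held 0.928 RPM (as CPM, but over the reads in all sites of the library and without TMM) in G45, 1.26 and 6.51 RPM in HuR and 0.139 RPM in Total, so HuR replicate 1 was close to G45 there. The MDM2 3'utr had 76 merged sites, of which 41 were present in both HuR replicates. Of those 41, 30 were in no GFP slice, and 9 were in neither a slice nor Total. G20, G35 and G45 held only 17, 4 and 6 sites in this 3'utr, and the share over all genes was not counted.

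The MDM2 introns were dominated by a single site of the controls. At chr12:69229351-69229428, on the plus strand within an intron, 140738 of the 142644 MDM2 reads of Total (98.7%) and 6369 of the 6500 MDM2 reads of G20 (98.0%) lay on the stretch shown above, against 18 reads in G35, 165 in G45 and 10 and 28 in the HuR replicates. These reads carried 140757 conversion events in Total and 6375 in G20, near 1 per read. The 22 bases occur at 1 place in GRCh37, and at 0 places when any 1 of their T is read as C. This search covered neither shorter stretches nor other mismatches, so it cannot tell where the reads came from. Whether they were mismapped from another RNA was not tested. The sum over introns was therefore 1567, 25.9 and 82.8 CPM in the GFP slices, 65.4 and 87.3 CPM in HuR and 6592 CPM in Total, with a log2 fold change of -2.87 against GFP (adjusted p = 0.212, edgeR) and -6.43 against Total (adjusted p = 0.0616, edgeR).

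Without this site the MDM2 introns held 10.5, 18.1 and 13.5 CPM in the GFP slices, 63.7 and 86.7 CPM in HuR and 37.8 CPM in Total. HuR was then above all controls, and the log2 fold change turned to 2.43 ± 0.70 (SE) against GFP (adjusted p = 0.0428, edgeR) and 0.99 against Total (adjusted p = 0.609, edgeR). Leaving out the highest site of each region was chosen after seeing the data. The intron site at chr12:69204610-69204663, shown above with its run of U, held 7 and 198 reads in the HuR replicates, 1 in Total and 0 in each slice. MDM2 coding sequence held 8.31, 4.74 and 0 CPM in the slices, 4.17 and 4.14 CPM in HuR and 13.5 CPM in Total, and HuR lay within the range of GFP.

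**Figure D1:**
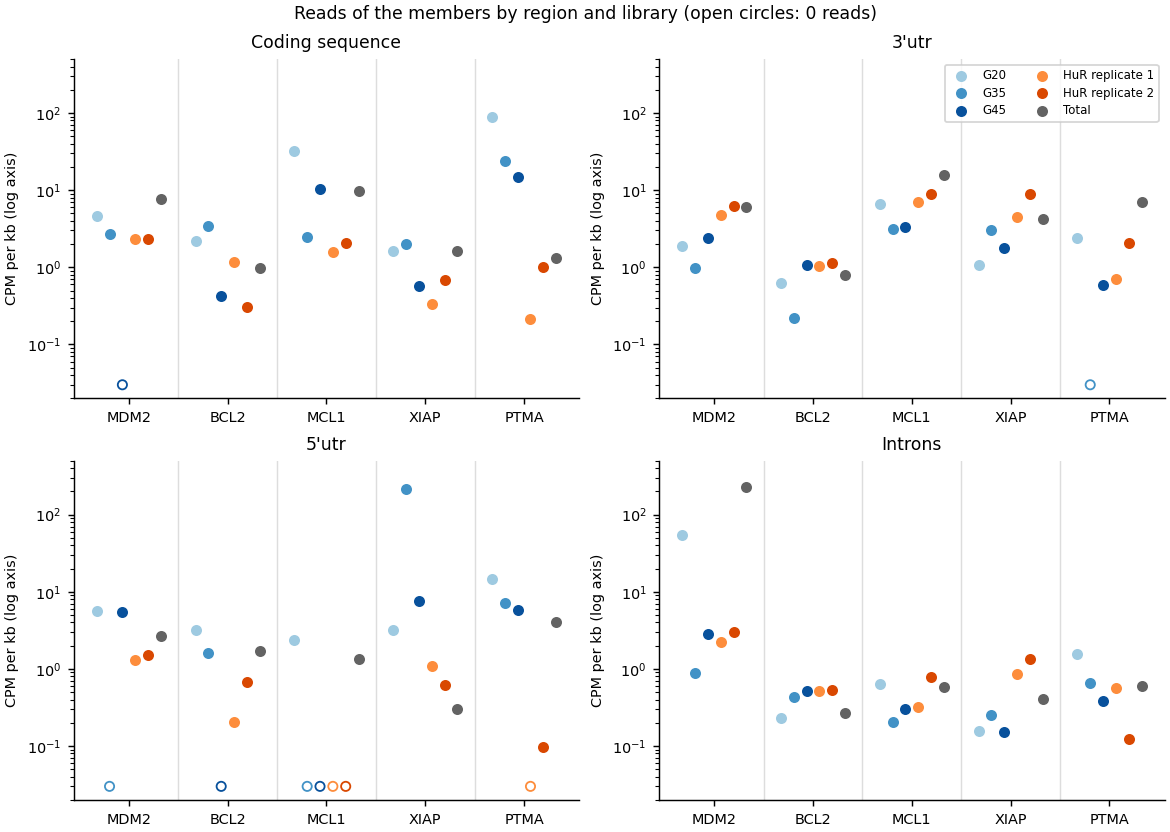
CPM per kb (log axis) of each gene in coding sequence, 3'utr, 5'utr and introns, a point per library and an open circle for 0 reads. HuR lay above every GFP slice in the 3'utr of MDM2, MCL1 and XIAP and in the XIAP introns, and below every slice in PTMA coding sequence, while Total reached 227 CPM per kb in the MDM2 introns. Over all genes, 60.9% of 3'utr, 66.4% of intron and 10.3% of coding regions tested had a positive log2 fold change against GFP. How many of them lay above or below every slice was not counted.

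The BCL2 reads were mostly intronic in every library, and neither the 3'utr nor the introns differed between HuR and GFP beyond the spread. The BCL2 3'utr held 6.11, 2.15 and 10.5 CPM in G20, G35 and G45, 10.2 and 11.3 CPM in HuR and 7.92 CPM in Total (25, 5, 25, 61, 480 and 170 reads). G45 lay inside the HuR range, so the groups overlapped, with a log2 fold change of 0.78 ± 0.92 (SE) against GFP (adjusted p = 0.598, edgeR) and 0.44 against Total (adjusted p = 0.870, edgeR). A site at chr18:60794620-60794640 held 23 of the 25 G45 reads and 5 of the 5 G35 reads of the 3'utr. Without it the log2 fold change against GFP was 2.06 (adjusted p = 0.258, edgeR).

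The BCL2 introns, 184171 bp long, held 42.0, 80.6 and 94.6 CPM in the slices, 94.6 and 98.6 CPM in HuR and 49.8 CPM in Total. G45 and HuR replicate 1 were nearly equal, and the log2 fold change was 0.42 against GFP (adjusted p = 0.730, edgeR). The site with the highest mean level in HuR, at chr18:60822915-60822933, was also the highest in GFP: it held 0.828, 8.89 and 17.2 RPM in the slices, 1.99 and 3.99 RPM in HuR and 0.223 RPM in Total. Of its 130 reads in G45, 127 conversion events were counted, and of its 128 reads in HuR replicate 2 there were 128. In contrast, the U-rich site at chr18:60889792-60889815 held 91 reads in HuR replicate 2 and 1 in Total, with 0 in HuR replicate 1 and in each slice. A further site, at chr18:60872998-60873030, was the reverse between the replicates, with 40 reads in HuR replicate 1 and 10 in HuR replicate 2.

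MCL1 was the gene with most of its HuR reads in the 3'utr, and its coding sequence was lower in HuR than in each slice. The MCL1 3'utr held 22.0, 10.3 and 10.9 CPM in G20, G35 and G45, 23.2 and 29.7 CPM in HuR and 51.9 CPM in Total (90, 24, 26, 139, 1256 and 1115 reads). HuR and GFP did not overlap, but HuR replicate 1 and G20 lay close together and Total was the highest library. The log2 fold change was 0.87 ± 0.71 (SE) against GFP (adjusted p = 0.442, edgeR) and -0.97 against Total (adjusted p = 0.6005, edgeR).

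The MCL1 3'utr site highest in HuR, at chr1:150548332-150548382 (1472 to 1522 nt), held 17 and 84 reads in the HuR replicates, 13 in Total and 0 in each slice. It carries the TTTATTT shown above. Next to the end of the 3'utr, the site at chr1:150547255-150547412 (2442 to 2599 nt) held 10 and 103 reads in HuR but also 52 in G20 and 223 in Total, where it was the highest site of the gene. The neighbouring site at chr1:150547414-150547480 (2374 to 2440 nt) held 16 and 77 reads in HuR, 2, 0 and 1 in the slices and 21 in Total. Of 28 merged 3'utr sites found in both HuR replicates, 14 were in no slice, and 4 were in neither a slice nor Total. The share over all genes was not counted.

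The MCL1 coding sequence held 34.5, 2.59 and 10.9 CPM in the slices, 1.67 and 2.17 CPM in HuR and 10.2 CPM in Total. HuR was below all controls, with a log2 fold change of -3.05 ± 1.06 (SE) against GFP (adjusted p = 0.0778, edgeR). DESeq2 gave an adjusted p of 0.0232 for this region. Of the 141 coding reads of G20, 92 lay at the merged site chr1:150551395-150551989, which held 185 reads in Total and 4 and 8 in HuR. The MCL1 introns held 8.06, 2.59 and 3.78 CPM in the slices and 4.00 and 10.02 CPM in HuR, which overlapped.

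XIAP was the only one of the 5 genes with a region called higher in HuR than in GFP: its introns rose, while its 3'utr was above every slice without passing the test and its 5'utr fell. The XIAP introns held 7.09, 11.2 and 6.73 CPM in G20, G35 and G45, 38.5 and 59.8 CPM in HuR and 18.3 CPM in Total (29, 26, 16, 231, 2529 and 393 reads). The lowest HuR library was above the highest slice and above Total. The log2 fold change was 2.56 ± 0.73 (SE) against GFP (adjusted p = 0.0391, edgeR) and 1.43 against Total (adjusted p = 0.490, edgeR). Over all genes, 609 of 14868 intron regions were called higher in HuR than in GFP and 200 lower, with a median log2 fold change of 0.78. The call was lost when any one of the GFP or HuR libraries was left out, with the adjusted p (edgeR) between 0.0505 without HuR replicate 1 and 0.398 without HuR replicate 2, while the log2 fold change stayed between 2.16 and 3.52.

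The intron site at chrX:122998906-122998960 held 435 reads in HuR replicate 2 and 15 in HuR replicate 1, against 0, 6 and 0 in the slices and 1 in Total. Without it the log2 fold change of the introns was 2.52 (adjusted p = 0.0421, edgeR). The call therefore did not rest on that site.

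The XIAP 3'utr held 7.33, 20.7 and 12.2 CPM in the slices, 30.9 and 61.2 CPM in HuR and 29.0 CPM in Total (30, 48, 29, 185, 2589 and 622 reads). Both HuR replicates were above the slices and above Total, though HuR replicate 1 only narrowly exceeded Total. The log2 fold change of 1.79 ± 0.73 (SE) against GFP did not pass (adjusted p = 0.125, edgeR), nor did 0.67 against Total (adjusted p = 0.747, edgeR).

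HuR reads were uneven along the XIAP 3'utr. The site at chrX:123044053-123044238 (3025 to 3210 nt) held 27 and 610 reads in HuR, 3, 0 and 9 in the slices and 9 in Total. Just before it, the site at chrX:123043870-123043985 (2842 to 2957 nt) held 8 and 257 reads in HuR, 0, 7 and 0 in the slices and 64 in Total. The 3 highest merged sites took 40.5% of the 3'utr reads of HuR replicate 2. The part of the 3'utr before its midpoint held 85.9% and 84.4% of the reads in HuR replicates 1 and 2. The site highest in Total, at chrX:123044301-123044318, lay close by, with 18 and 83 reads in HuR, 165 in Total and 0 in each slice.

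The XIAP 5'utr held 1.96, 133 and 4.62 CPM in the slices, 0.667 and 0.378 CPM in HuR and 0.186 CPM in Total. HuR was below all slices, with a log2 fold change of -6.54 ± 1.46 (SE) against GFP (adjusted p = 0.0162, edgeR). G35 alone set the size: the site at chrX:122993896-122993993 held all 309 of its reads there, with 0 conversion events, and without G35 the log2 fold change was -2.65 (adjusted p = 0.334, edgeR). Without G20 it was -7.18 (adjusted p = 0.0879, edgeR). With that site left out, too few reads remained for a test.

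**Figure D2:**
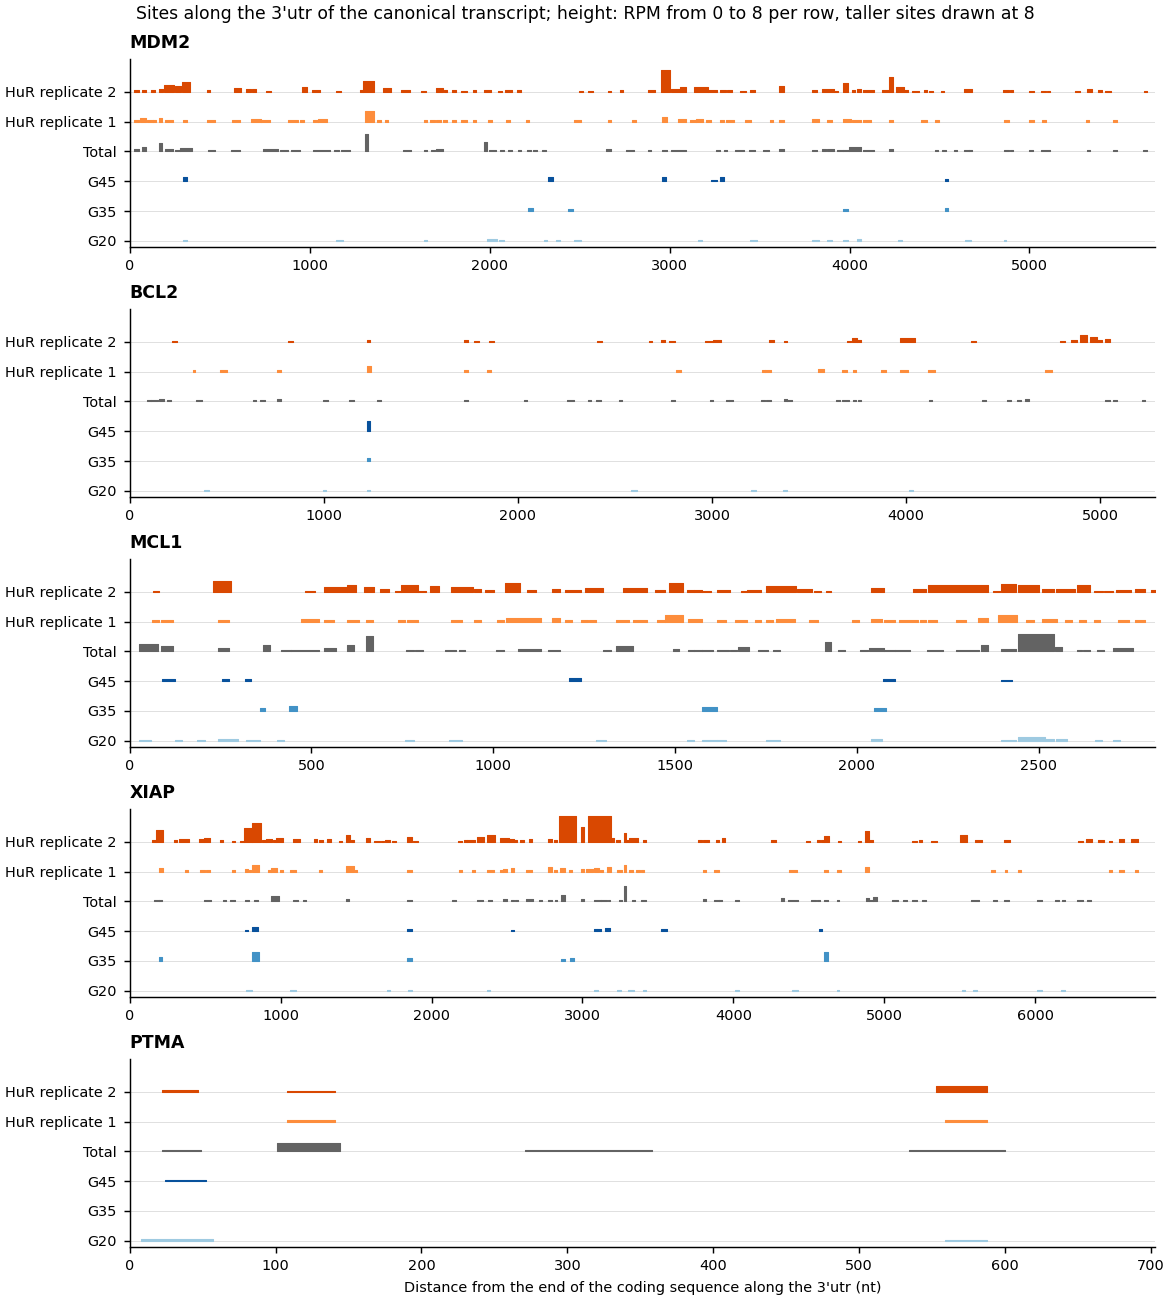
Sites along the 3'utr of the canonical transcript of each gene, from the end of the coding sequence (nt), with height in RPM from 0 to 8 per library and taller sites drawn at 8. In XIAP the tallest HuR replicate 2 sites lie at 2842 to 3210 nt, in MDM2 the tallest lies at 2955 to 3005 nt, and the slices show few sites in any gene.

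PTMA held few reads in HuR, 22 and 148 over all its regions, and its coding sequence and 5'utr fell in HuR against GFP. PTMA coding sequence held 69.2, 18.5 and 11.4 CPM in G20, G35 and G45, 0.167 and 0.780 CPM in HuR and 1.02 CPM in Total (283, 43, 27, 1, 33 and 22 reads). The slices were far above HuR and Total, which lay close together. The log2 fold change was -5.92 ± 1.13 (SE) against GFP (adjusted p = 0.0122, edgeR) and -0.91 against Total (adjusted p = 0.698, edgeR). Over all genes, coding sequence was lower in HuR than in GFP, with a median log2 fold change of -2.60 and 1151 of 11620 regions called lower.

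Without the highest site of the region, the log2 fold change of PTMA coding sequence was -3.85 (adjusted p = 0.132, edgeR). The call was also lost without G20 (adjusted p = 0.0841, edgeR) and without HuR replicate 1 (adjusted p = 0.0761, edgeR).

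The PTMA 5'utr held 10.5, 5.17 and 4.20 CPM in the slices, 0 and 0.0709 CPM in HuR and 2.93 CPM in Total. HuR was below every control with 3 reads in all, and the pooled level in GFP was 119 times that in HuR (95% exact counting interval 39.0 to 592). The region was called lower than GFP (adjusted p = 0.0276, edgeR), and the call was lost without G20 (adjusted p = 0.0968, edgeR), HuR replicate 1 (adjusted p = 0.223, edgeR) or HuR replicate 2 (adjusted p = 0.247, edgeR). Nearly all of these reads lay at a single site, chr2:232573253-232573309, without which no test was possible.

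The PTMA 3'utr held 7, 0 and 1 reads in the slices, 3 and 62 reads in HuR and 107 in Total, that is 1.71, 0, 0.420, 0.50, 1.47 and 4.98 CPM. The groups overlapped, with a log2 fold change of 0.40 ± 1.71 (SE) against GFP (adjusted p = 0.901, edgeR). In HuR replicate 2, 54 of the 62 reads lay at chr2:232578092-232578158 (534 to 600 nt), the site with the long U runs shown above, which held 2 reads in HuR replicate 1, 1 in G20 and 4 in Total. Total had its highest site elsewhere, at chr2:232577659-232577702 (101 to 144 nt), with 89 reads against 1 and 3 in HuR. These reads are only those that mapped uniquely, and 95.7% of the 25-base stretches of the PTMA 3'utr also occur elsewhere in the genome, so its level is uncertain.

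**Figure D3:**
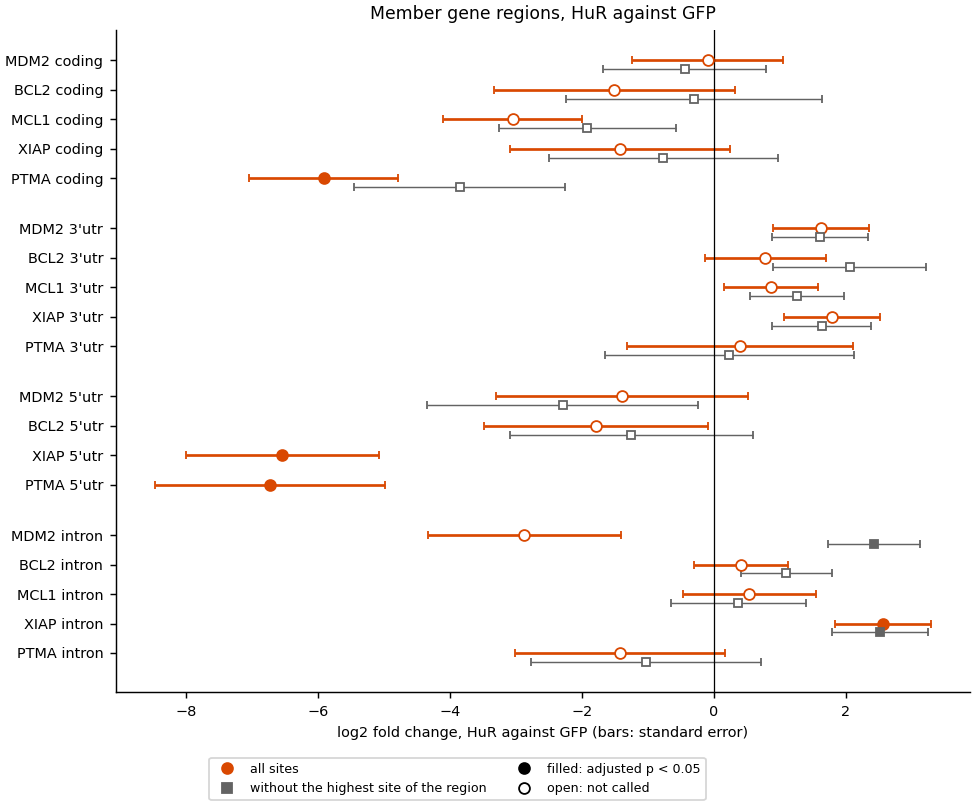
Log2 fold change of each region of the 5 genes in HuR against GFP (bars are the SE), with all sites (circles) and without the highest site of the region (squares), and filled symbols for an adjusted p below 0.05. The MDM2 introns moved from -2.87 to 2.43 without 1 site, the XIAP introns stayed at 2.52, and the XIAP and PTMA 5'utr have no square because too few reads remained.

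Set side by side per kb of 3'utr, the mean level in HuR was 7.99 ± 1.39 CPM per kb in MCL1 (SD, n = 2), 6.77 ± 3.16 in XIAP, 5.46 ± 1.05 in MDM2, 1.40 ± 0.97 in PTMA and 1.09 ± 0.08 in BCL2. The replicates of XIAP overlapped with those of MCL1 and of MDM2, both MCL1 replicates lay above those of MDM2, and the replicates of PTMA overlapped with those of BCL2, but the first 3 genes did not overlap with the last pair. In both replicates, the 3'utr of MCL1, XIAP and MDM2 lay above between 93.8% and 97.6% of 15938 genes, and that of BCL2 above 74.6% and 70.6%. High ranks were also found in the controls, where the same 3 genes lay above between 85.3% (XIAP) and 97.5% (MCL1) of genes in Total and between 70.1% and 93.8% in the slices. All 5 genes had a positive fold change in the 3'utr against GFP and MCL1 the median one (0.87), while over all genes 60.9% of 3'utr regions were positive, with a median of 0.68. None of the 5 was called, against 141 higher and 92 lower of 10461 over all genes.

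The share of reads by region differed more between the genes than between the HuR replicates, except in PTMA. The 3'utr held 69.4% ± 8.2 (SD, n = 2) of the HuR reads of MCL1, 45.9% ± 5.1 of XIAP, 27.7% ± 0.08 of MDM2, 27.8% ± 20.0 of PTMA and 9.88% ± 0.43 of BCL2. Introns held 88.8% ± 0.33 of the HuR reads of BCL2, 67.1% ± 0.91 of MDM2, 50.5% ± 3.1 of XIAP and 17.2% ± 6.0 of MCL1. Summed over the 5 genes, the 3'utr took 29.4% and 33.7% of the reads in HuR replicates 1 and 2, against 7.51% and 13.3% over all protein-coding genes. In Total it took 1.89%, against 17.9% over all genes, since nearly all of those reads were at the MDM2 intron site. By gene, the 3'utr share of Total was 73.8% in MCL1, 57.4% in XIAP, 42.5% in PTMA, 12.9% in BCL2 and 0.531% in MDM2. Total thus lay within the range of the HuR replicates in MCL1, above both in XIAP, PTMA and BCL2, and below both in MDM2. In MDM2 this rests on the intron site, which held 98.7% of the MDM2 reads of Total. Without that site, MDM2 held 758 3'utr and 811 intron reads in Total. The HuR replicates then held 163 and 1513 3'utr reads beside 382 and 3666 intron reads, so the MDM2 share in Total was not lower there.

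**Figure D4:**
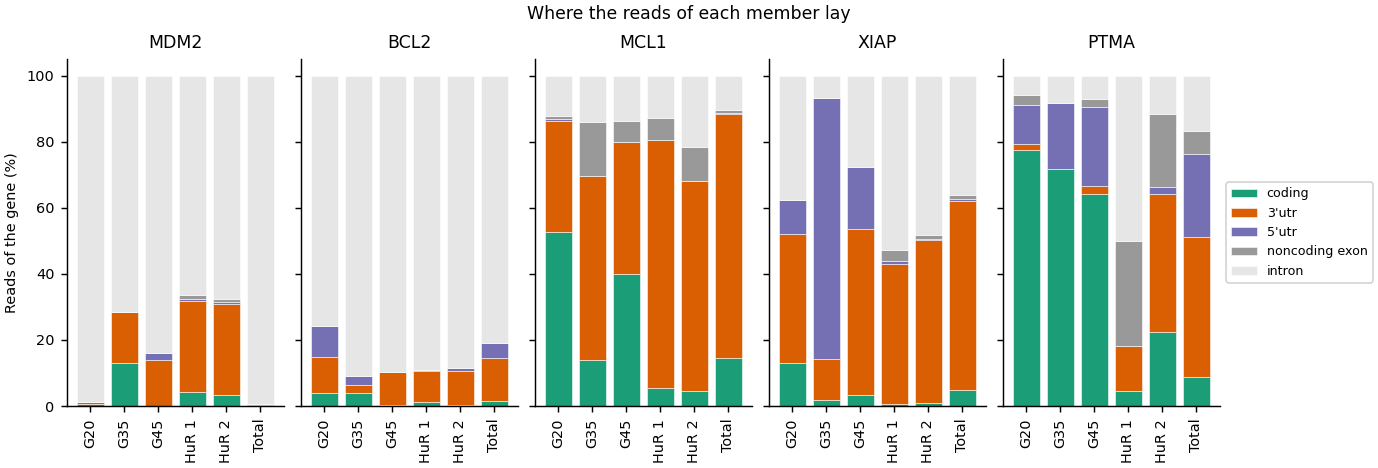
Share of the reads of each gene (%) in intron, noncoding exon, 5'utr, 3'utr and coding sequence, a stacked bar per library that adds up to all reads of the gene. The 3'utr share of HuR is largest in MCL1 (69.4%) and smallest in BCL2 (9.88%), coding sequence fills most of the slices' bars in PTMA, and the XIAP 5'utr fills most of the G35 bar.

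In the 3'utr, T-to-C conversions were more frequent in HuR than in Total in every gene and than in the slices in some. HuR replicates 1 and 2 held 100 and 105 conversion events per 100 reads in MDM2, 62.3 and 109 in BCL2, 94.96 and 109 in MCL1, and 94.1 and 98.2 in XIAP. Total held 18.3, 31.8, 20.7 and 27.5 in these genes. HuR was thus above Total in each, but for BCL2 this did not hold with only sites of 5 or more reads, of which HuR replicate 1 had 2 (20 events per 100 reads, against 33.7 in Total). It did not hold for the MDM2 introns either, with 94.9 and 110 in HuR and 99.6 in Total, where nearly all reads lay at the single intron site. Without that site it did hold, with 94.8 and 110 in HuR and 23.3 in Total, and 30.2, 57.1 and 40.6 in G20, G35 and G45. The slices held, again in the 3'utr, 44.4, 30.8 and 57.6 events per 100 reads in MDM2 and 16, 0 and 8 in BCL2, all below HuR. In MCL1 they held 27.8, 146 and 69.2 and in XIAP 43.3, 16.7 and 100, which overlapped with HuR on between 24 and 90 reads. Summed over the 5 genes, HuR held 92.4 and 103 events per 100 reads of 3'utr, against 82.1 and 102 over all genes. Over all genes, Total held 19.9 there, and G20, G35 and G45 held 29.6, 61.7 and 52.98. Introns over all genes also held more in HuR (64.9 and 96.96) than in Total (26.7) or the slices (8.76, 55.8 and 47.3). HuR thus lay above Total and the slices over all genes too, so this order is not particular to the 5 genes.

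**Figure D5:**
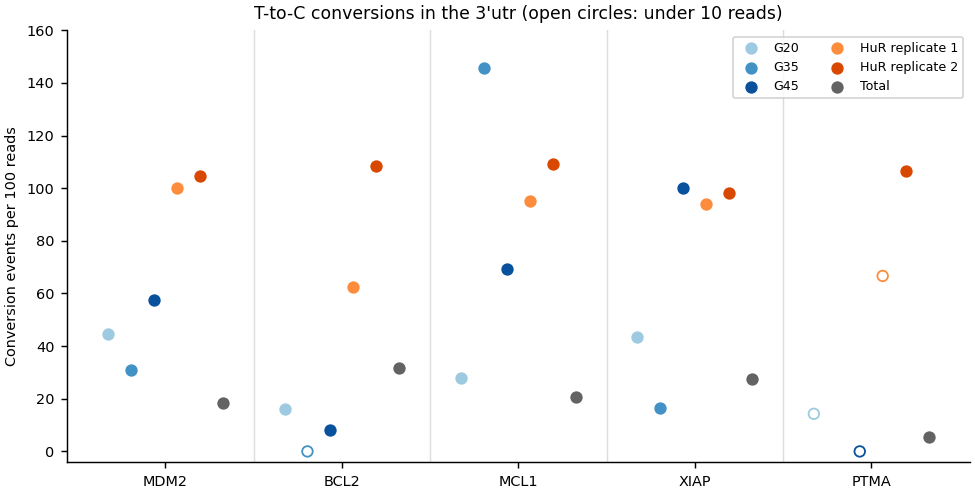
T-to-C conversion events per 100 reads in the 3'utr of each gene, a point per library, with open circles for fewer than 10 reads. The HuR replicates lie between 62.3 and 109, apart from Total at 5.61 to 31.8, and G35 in MCL1 (146) and G45 in XIAP (100) reach or pass HuR. Over all genes, HuR (82.1 and 102) also lay above Total (19.9).

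Sites of the 3'utr recurred between the HuR replicates in most of these genes. Of the sites of HuR replicate 1, 48 of 56 were also found in HuR replicate 2 in MDM2 (85.7%), 40 of 45 in MCL1 (88.9%), 45 of 49 in XIAP (91.8%), 13 of 32 in BCL2 (40.6%) and 2 of 2 in PTMA, against 60.1% over all genes. Seen from HuR replicate 2, the shares were 68.5% in MDM2, 76.0% in MCL1, 53.3% in XIAP and 26.5% in BCL2, against 37.5% over all genes. BCL2 was the only one of these below the share over all genes in both directions. A site counted as found if it shared at least 1 bp on the strand. The sites of HuR replicate 2 covered 61.5% of the canonical 3'utr of MCL1, 40.3% of MDM2, 38.9% of XIAP and 13.6% of BCL2. How far the recurrence follows from this coverage was not tested.

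Sites that share at least 1 bp with a GFP site on either strand are those a background correction would remove. Such sites held 17.8% and 19.9% of the MDM2 reads of HuR replicates 1 and 2, 16.8% and 9.34% of BCL2, 39.5% and 35.3% of MCL1, 25.6% and 48.7% of XIAP and 31.8% and 81.1% of PTMA. Over all genes it was 50.7% and 25.1%. MDM2 and BCL2 were below the share over all genes in both replicates, and the other genes were below it in HuR replicate 1 and above it in HuR replicate 2. Counted by sites, the order differed: 15.8% and 15.5% of the MDM2 sites overlapped a GFP site, above the 9.71% and 8.94% over all genes, while BCL2 stayed below at 5.81% and 6.07%. In the 3'utr the XIAP share of reads was 44.3% and 62.3%, against 50.2% and 49.6% over all genes. PTMA rests on 22 and 148 reads.

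Windows of 41 bases around the HuR sites were searched on the RNA strand for TTTTT and ATTTA and TTTATTT, whose matches may overlap each other. In the 3'utr of the 5 genes together, TTTTT was in 22.3% and 21.2% of the windows of HuR replicates 1 and 2, against 19.8% and 24.6% over all genes. ATTTA was in 14.1% and 12.4%, against 10.1% and 11.3%, and TTTATTT in 2.17% and 2.80%, against 3.74% and 4.59%. By sites, the 5 genes and all genes thus lay within 5 percentage points for TTTTT and ATTTA, while the rarer TTTATTT was less frequent in the 5 genes in both replicates. Weighted by reads, TTTTT in HuR replicate 2 was in 25.4% for the 5 genes against 41.2% over all genes (22.1% against 20.4% in HuR replicate 1). By reads, TTTATTT was in 3.24% against 9.25% in HuR replicate 2, and in 4.17% against 3.91% in HuR replicate 1. The motifs were not more frequent in HuR than in all controls: by sites, G20, G35, G45 and Total held TTTTT in 16.4%, 31.25%, 28% and 15.7% of the windows of the 5 genes, and ATTTA in 11.9%, 31.25%, 20% and 14.3% (67, 16, 25 and 217 sites). The mean T share of the windows was 35.1% and 35.9%, against 34.7% and 35.5%. By gene, among those with over 10 sites, ATTTA was most frequent in MDM2 (19.6% and 16.4%). The replicates differed for TTTTT: it was most frequent in BCL2 in HuR replicate 1 (28.1%, XIAP 22.4%) and in XIAP in HuR replicate 2 (26.7%, BCL2 18.4%).

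Other genes of the same pathways were grouped in 5 lists and read from the same fit, with the members left out. Among regulators of p53, 3 of 12 intron regions rose in HuR against GFP, those of MDM4 (a partner of MDM2 that restrains p53), PPM1D (a phosphatase that shuts the p53 response off) and COP1 (another ubiquitin ligase of p53), beside 4.10% of all introns called higher, and the median log2 fold change was 1.84 beside 0.78 over all introns. Their 3'utr had a positive fold change against GFP in 10 of 10 tested genes, with a median of 1.44 beside 0.68 over all genes and 0 called. Against Total it was positive in 3 of 10, with a median of -0.28 beside -0.84 over all genes. The MDM4 3'utr, the highest of the list in HuR, held 10.5, 14.7 and 18.9 CPM in the slices, 46.2 and 59.6 CPM in HuR and 41.8 CPM in Total, with a log2 fold change of 1.85 (adjusted p = 0.101, edgeR). In the 5'utr 1 of 6 was higher and 1 lower, CHEK1 and SIRT1, beside 0.585% and 2.87% of all 5'utr regions.

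Among caspases, IAPs and their partners, 1 of 13 intron regions rose, that of APAF1, the scaffold of the apoptosome, beside 4.10% of all introns. The median log2 fold change of the 13 intron regions was 1.68, close to that of the regulators of p53. Of 7 5'utr regions 1 rose, that of BIRC6, beside 0.585% over all genes, with 0 of 13 called in the 3'utr (11 positive, median 0.98). The BIRC5 3'utr, the highest of this list in HuR, held 29.8, 9.05 and 5.89 CPM in the slices and 18.7 and 40.4 CPM in HuR, which overlapped. Among p53 targets, 0 of 11 was called in the 3'utr (9 positive, median 0.98), with ZMAT3 the highest at 4.40, 5.60 and 6.73 CPM in the slices and 16.7 and 28.6 CPM in HuR (log2 fold change 2.03, adjusted p = 0.110, edgeR). In the introns of this list 0 of 11 was called, with a median log2 fold change of 1.75. SESN2 coding sequence and the CCNG1 5'utr were lower in HuR than in GFP, beside 9.91% of all coding and 2.87% of all 5'utr regions.

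In the lists of the BCL2 family, no 3'utr or intron region was called. Among death promoters, 0 of 7 was called in the 3'utr (3 positive, median -0.30). The PMAIP1 5'utr was lower than in GFP, 1 of 2 tested, beside 2.87% of all 5'utr regions called lower. The PMAIP1 3'utr was the highest of the list, at 26.4, 24.1 and 16.4 CPM in the slices, 45.0 and 127.5 CPM in HuR and 93.8 CPM in Total (log2 fold change 1.95, adjusted p = 0.0947, edgeR). Among other death inhibitors, 0 of 3 was called (1 positive), and BCL2L2 held 16.1, 9.05 and 6.31 CPM in the slices and 6.51 and 14.4 CPM in HuR. Against Total, only SESN2 coding sequence was called in any list, lower in HuR (1 of 9 coding regions of p53 targets), beside 7.31% of all coding regions called lower.

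Over 18 values (log2 of CPM + 1 in coding sequence, 3'utr and introns in the 6 libraries), the genes closest to each of the 5 by Euclidean distance were found among 19272 genes, as a description. XIAP had the closest neighbours, SESN3 at a distance of 1.91 and PTAR1 at 2.19, where the median gene lay at 12.6. BCL2 was closest to GNAQ (2.84) and HDGFL3 (2.96), MCL1 to SRSF6 (3.11), and PTMA to TPI1 (3.53) and ZNF687 (3.66). MDM2 had no close neighbour: HOXB3 lay at 8.002 and NFIA at 8.32, where the median gene lay at 19.3, and its values include the intron site of G20 and Total.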

How the data were processed

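The libraries were single 50-base reads that the authors mapped to hg19 with bowtie and passed to PARalyzer, which used only reads of a unique position and tolerated T-to-C mismatches. The authors deposited counts per site of reads, conversion locations and conversion events, not normalized, in tables of groups (sites with any read, used here) and clusters (an alternative). Removal of PCR duplicates is not stated. Sites were counted for each protein-coding gene of GENCODE release 44 mapped to GRCh37 whose span holds them, where coding sequence took precedence over 3'utr, then 5'utr, then noncoding exon, then intron. Here the 3'utr starts after the last coding base. Reads summed per gene and region were tested with edgeR 4.0.16 in R 4.3.3 (TMM, filterByExpr, quasi-likelihood test, group as the only term, all 6 libraries). DESeq2 1.42.0, RLE size factors, library totals, no filter, sites with 5 or more reads, clusters, sites in a single gene span, and leaving out each replicate were alternatives. Other steps ran in Python 3.11.15 (pandas 2.3.3, numpy 2.4.6, scipy 1.17.1). On simulated data for HuR against GFP (40883 regions, dispersion 0.1), the test recovered 82 of 100 regions changed 4-fold and 100 of 100 changed 16-fold, and called 5 unchanged ones. The simulation gave all regions the same dispersion and held no differences between gel slices. Changes were planted only in regions with enough expected HuR reads. It therefore does not give the power of the test in the real libraries, and a region not called may still differ.

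Sites were merged on the same strand over the libraries. Per gene the text names the 3 merged sites with the highest mean HuR RPM, the 1 highest in GFP and the 1 highest in Total, and the 2 nearest genes; other sites named, those of the BCL2 3'utr and the PTMA 5'utr, were chosen after their values were seen. A gene and a site that these rules name are not reported here. From each pathway list it names the gene with the highest mean 3'utr level in HuR and the genes called, the latter after their values were seen. The 5 genes, the lists and the rules were chosen with earlier results of these data known. Intervals are exact 95% intervals, and floors are the level of 3 reads.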

Additional observations from a re-analysis of the deposited data

How the results depend on the processing

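No paired analysis was possible because the GFP libraries carry no replicate numbers and differ in gel size. Against GFP, 2355 gene regions were called, and 8 with clusters, 92 with sites of 5 or more reads, 3592 with RLE size factors, 5102 without the filter, 6796 with DESeq2, 6916 on library totals and 0 to 1434 when a replicate was left out (0 without G20, with 8827 at an unadjusted p under 0.05). Against Total, 1061 were called, and 1 with clusters, 4 on library totals, 55 with sites of 5 or more reads, 1757 without the filter, 2219 with RLE size factors, 2797 with DESeq2 and 19 to 1063 when a replicate was left out. Of the regions of the 5 genes, 4 were called against GFP, and 0 with clusters or sites of 5 or more reads, 2 without the highest site of each region (chosen after seeing the data) and 0 to 3 when a replicate was left out. Against Total 0 were called, and 1 without the filter, with RLE size factors or with sites of 5 or more reads, 2 with DESeq2 and 0 to 1 when a replicate was left out.

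The HuR share of coding sequence over the 5 genes (2.24%) was 1.90% with protein-coding transcripts only and 2.65% when a region needed any overlap. That of the 3'utr (31.6%) was 43.0% with sites of 5 or more reads and 48.3% with clusters. That of the 5'utr (0.50%) was 0.233%, 0.241% and, with any overlap, 0.572%. That of introns (63.6%) was 52.6%, 48.1% and, with protein-coding transcripts only, 66.4%. The share of HuR reads that overlap a GFP site (24.7%) was 12.9% with GFP sites of 5 or more reads and 17.6% to 27.9% when a replicate was left out. In the 3'utr, TTTTT (21.7% of windows) was 18.2% in the site itself and 23.8% weighted by reads, ATTTA (13.3%) was 12.0% in the site itself, and TTTATTT (2.49%) was 3.71% weighted by reads.

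The log2 fold change turned its sign in 36 cases, none of them called in both settings, and their causes were not tested beyond the sites named above. Against GFP on library totals, it turned to 0.78 in the BCL2 5'utr, 0.097 in BCL2 coding sequence, 0.90 in the MDM2 5'utr, 2.21 in MDM2 coding sequence, 0.21 in the MDM2 introns, 0.51 in the PTMA introns and 0.69 in XIAP coding sequence. MDM2 coding sequence also turned, to 0.43 with clusters, 0.76 without the filter, 0.46 with sites of 5 or more reads, and to 0.77 without G20 and 0.66 without HuR replicate 1 (down to -0.63 without G45). The MDM2 introns turned to 2.43 without their highest site and 0.45 without G20 (down to -3.40 without G35), the BCL2 introns to -0.41 with clusters, the MCL1 introns to -0.34 without HuR replicate 2 (up to 1.77 without HuR replicate 1), and the PTMA 3'utr to -0.092 without G35 and -0.64 without HuR replicate 2 (up to 2.19 without G20). Against Total, the MCL1 introns (-0.04) turned to 0.93 with clusters, 0.037 with DESeq2, 0.036 with RLE size factors, 0.16 without the filter, 0.11 with sites in a single gene span, 0.72 with sites of 5 or more reads or without HuR replicate 1, and 0.86 on library totals (down to -0.84 without HuR replicate 2). The MDM2 3'utr turned to 0.024 without the filter, 0.61 on library totals and 0.28 without HuR replicate 1 (down to -0.36 without HuR replicate 2). With clusters, the BCL2 3'utr turned to -0.14, the PTMA 3'utr to 6.08 and PTMA coding sequence to 3.33. Without their highest site, BCL2 coding sequence turned to 0.063, the MDM2 introns to 0.99 and the PTMA 3'utr to 0.092, and BCL2 coding sequence turned to 0.27 without HuR replicate 2 (down to -1.39 without HuR replicate 1).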

Other observations

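Sites on the strand opposite to the 5 genes, which entered no level above (only the overlap with GFP sites ignored strand), held most reads in BCL2: 18, 29 and 32 in G20, G35 and G45, 271 and 187 in HuR replicates 1 and 2, and 35 in Total. On the CPM scale this was 4.40, 12.5 and 13.5 in the slices, 45.2 and 4.42 in HuR and 1.63 in Total, so HuR replicate 1 was above every control and HuR replicate 2 was not. The HuR reads carried 43.9 and 19.8 conversion events per 100 reads, against 83.4 and 103 in the BCL2 introns on the gene's own strand. In MDM2, MCL1, XIAP and PTMA the opposite strand held between 2 and 77 reads in a HuR replicate.

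Scaled to library totals, the HuR replicates differed at some of the named sites more than at others. In XIAP the 3'utr site at chrX:123044053-123044238 held 2.83 RPM in HuR replicate 1 and 18.996 RPM in HuR replicate 2, and the intron site at chrX:122998906-122998960 held 1.57 and 13.5 RPM. In MDM2 the 3'utr site at chr12:69234925-69234985 held 3.04 and 3.24 RPM, and in MCL1 the site at chr1:150548332-150548382 held 1.78 and 2.62 RPM. Other MDM2 sites differed more, with 1.26 and 6.51 RPM in the 3'utr at chr12:69236581-69236631 and 0.735 and 6.17 RPM in the intron at chr12:69204610-69204663, and MCL1 held 1.05 and 3.21 RPM at chr1:150547255-150547412. The replicates thus differed in size from site to site also within a gene, and the cause was not tested.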
